A study of Mus musculus with 199 samples.

Results

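The windows described here were the 40 kb windows of the mouse genome that received a positive call in at least 1 water control with few calls. A water control was a collection cap left empty during laser microdissection and then amplified and sequenced like the others, so that no dissected nucleus contributed to its calls. A water control was used where less than 1% of the windows on chromosomes 1 to 19 and X were called. The 9 controls that met this limit called 861 of 65983 windows (1.30%), and these 861 are named water-called windows below. The remaining 65122 are the other windows. The windows were chosen by the calls of the 9 controls alone, so their values are given as a description, and tests were made in 4NP libraries, which the choice did not use.

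Genome architecture mapping (GAM) cuts thin cryosections through frozen cells, isolates slices of nuclei with a laser, and amplifies and sequences the DNA of each slice. Counting the slices that a pair of loci has in common gives an estimate of how near they lie to each other. The starting material is a trace of DNA, and whole genome amplification from so little template can copy stray DNA from reagents, from the membrane or from neighbouring wells. Empty caps are the usual guard against this, since a locus called in them may also be called in a real slice without being present there.

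Nuclear profiles came from 46C mouse embryonic stem cells, a Sox1-GFP knock-in line of strain 129/Ola. Sections were 220 nm thick, 4 nuclear profiles (4NP) were dissected into each cap, and whole genome amplification used the WGA4 kit from Sigma. The table held 199 libraries below the quality limits, of which all but 13 controls were 4NP libraries, in 28 groups by title. The 12 groups with at least 5 libraries were the full collection (34 libraries, stained with 1% cresyl violet), crystal violet at 1% (16) and the unstained libraries of the same test (5), propidium iodide (PI) at 10 µg/ml without (21) and with freezing (21), eosin at 0.5% in water (8) and in ethanol (8), libraries titled as SYBR Gold stained (15), and proteinase K at titled volumes of 3, 4 and 8 µl labelled mdc and 1 µl labelled csc (7 each). The experiment named for cresyl violet held libraries titled crystal violet. Groups of fewer libraries were 1 and 2 µl of mdc proteinase K and the unstained libraries of the PI, eosin and SYBR Gold tests. Others tested 20, 23 and 25 cycles of amplification (all others had 25), freezing early, late or after incubation, a small and a large kit, and amplification protocols a and c. The added library preparation mix and amplification mix were 4.32 and 87.84 µl in protocol a, in the PI experiment and in the test of freezing after incubation. They were 5.35 and 108.9 µl in protocol c and with titled proteinase K volumes, and 4.95 and 85 µl in all other experiments. The water controls carried no profiles, and 2 full collection controls held 5 ng of human DNA. In the SYBR Gold test the titles and the protocols disagreed about which libraries were stained, and titles were followed. Coverage, the percent of windows called, ran from 0.00152% to 26.8% in 4NP libraries with a median of 2.47%. Calls give no read depth, so a library with little DNA and a library with few reads cannot be told apart.

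The sequences below were chosen because each lies in 1 of the 3 water-called windows that were called in the most 4NP libraries. They were read from the mm9 reference at annotated landmarks, and the calls do not say where in a 40 kb window the reads fell. Capitals mark each CG. The first is the gap between the starts of 4930525F21Rik and Dtwd1, genes that run in opposite directions, at chr2:125977741-125977876, + strand. The second is the centre of the pseudogene AY036118 at chr17:39985311-39985510, - strand. The third lies directly upstream of Cdk2 at chr10:128142108-128142307, - strand.
Dtwd1 gap: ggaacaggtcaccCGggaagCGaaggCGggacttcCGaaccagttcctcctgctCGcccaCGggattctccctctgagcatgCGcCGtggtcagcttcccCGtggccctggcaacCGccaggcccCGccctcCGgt
AY036118 centre: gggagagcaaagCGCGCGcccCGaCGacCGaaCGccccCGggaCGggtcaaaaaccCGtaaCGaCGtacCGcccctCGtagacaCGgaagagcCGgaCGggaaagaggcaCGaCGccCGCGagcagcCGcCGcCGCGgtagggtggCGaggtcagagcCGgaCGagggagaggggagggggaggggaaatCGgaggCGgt
Cdk2 upstream: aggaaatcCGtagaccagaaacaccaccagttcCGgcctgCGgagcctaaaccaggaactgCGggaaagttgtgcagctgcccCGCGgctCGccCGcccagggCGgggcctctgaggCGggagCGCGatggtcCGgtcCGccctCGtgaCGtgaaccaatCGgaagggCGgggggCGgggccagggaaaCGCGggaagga

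The 3 stretches were rich in CG, with 12 sites in the 136 bases of the Dtwd1 gap, 30 in the 200 bases of AY036118 and 21 in the 200 bases upstream of Cdk2. The G and C content was 69.1%, 71% and 68.5%, while that of the whole 40 kb windows that hold them was 41.02%, 40.9% and 46.1%. None of the 106, 170 and 170 runs of 31 bases in the 3 stretches occurred a second time on chromosomes 1 to 19 and X. Sequence outside these chromosomes was not searched, so this does not show that a stretch has a single copy in the genome.

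The 9 controls differed in how many windows they contributed. Replicates 1, 2, 3, 5 and 6 of the full collection water controls called 35, 42, 51, 72 and 314 windows. The water control of the crystal violet test called 198, those of the small and large kit 36 and 87, and that of the libraries titled SYBR Gold stained 65. The highest coverage inside the limit was 0.476% (Wilson 95% interval 0.426% to 0.531%, which covers counting error only), and the lowest coverage outside it was 21.01%, in the SYBR Gold water control titled unstained. The limit of 1% therefore lay in a wide gap between controls. Replicate 6 of the full collection and the crystal violet test supplied most of the set, with 296 and 181 windows that no other of these controls called.

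Most water-called windows were called in a single control. There were 827 windows called in 1 control, 32 called in 2, 1 called in 3 and 1 called in 6. Of the 36 pairs of controls, 24 shared at least 1 window. The pairs shared 50 windows in sum, where independent calls with the same totals would share 4.91, a ratio of 10.2. The ratio was 9.01 over the 11 pairs from the same experiment and 10.6 over the 25 pairs from different experiments. Without the window called in 6 controls, a choice made after seeing the data, the sum was 35 and the ratios were 4.18 and 8.23. The largest overlap was 9 windows, between full collection replicate 6 (2.87% of its calls) and the crystal violet test control (4.55% of its calls). Sharing therefore concerned a small part of each control, between 4.17% and 16.7% of its windows, and occurred across experiments as well as within them.

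Full collection replicate 5 differed from the other controls in where its windows lay. Of its 72 windows, 21 were on the X chromosome, and 20 of these fell between positions 4880001 and 23520000, a stretch of 18.6 Mb that holds 0.706% of all windows. They included windows over Syn1, which encodes a synaptic vesicle protein, Elk1, which encodes a transcription factor, and Med14, a subunit of the Mediator complex. None of the 20 was called in another of the 9 controls, and they were called in 3 to 11 of the 4NP libraries with a median of 5. In the other 8 controls the densest stretch of up to 20 Mb held between 2 and 10 windows, at most 7.14% of a control's calls. The calls of the 9 controls on X were 1.08 times as frequent per window as on autosomes, and 0.753 times without replicate 5. In 4NP libraries this ratio was 0.565 for water-called windows and 0.524 for other windows.

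Every chromosome held water-called windows, from 0.756% of the windows of chromosome 17 to 1.95% of those of chromosome 14. There were 79 water-called windows (9.18%) directly beside another, where scattered windows would give 2.59%. Of the 42 such pairs of neighbours, 23 were called within a single control. The longest run was 5 windows, on X around Syn1 and Elk1, and it was made by full collection replicate 5 and the crystal violet test control together.

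The water-called windows lay in well assembled and gene-containing sequence more often than the rest of the genome, and so, to a lesser degree, did their surroundings. The surroundings were taken as the windows 3 to 10 places away on either side, which gave 11129 flanking windows. An exon of a protein-coding gene overlapped 524 water-called windows (60.9%), 50.3% of flanking windows and 46.1% of other windows. Fewer than 5% of bases were undetermined in 99.8% of water-called windows and in 96.6% of other windows. Among windows below that limit, the median share of 31-base runs that occur more than once in the assembly was 6.42% (quartiles 3.76% to 12.01%) in water-called windows, 8.70% in flanking windows and 10.7% (5.75% to 21.4%) in other windows. The median number of CG sites per kb was 8.98, 8.38 and 7.48 in the same order, and the median G and C content 41.9%, 42.1% and 41.1%. The longest run of a repeated dinucleotide had a median of 52 bases in all 3 sets. These are descriptions of windows that reads could be aligned to and called in, and no test was made on them.

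In 4NP libraries the water-called windows were called more often than other windows. All 861 were called in at least 1 4NP library, which was true of 95.9% of all windows. A window without alignable sequence can never be water-called, so part of this difference can follow from the choice. The number of 4NP libraries with a call had a median of 10 (quartiles 8 to 13) for water-called windows and 9 (6 to 11) for other windows. At the upper end the difference was wider. Of 271 windows called in at least 20 libraries (0.411% of all windows), 25 were water-called (2.90% of the 861), and of 21 windows called in at least 40 libraries (0.0318% of all windows), 6 were water-called (0.697% of the 861). Over all 4NP libraries the call rate was 5.71% ± 5.68 in water-called windows and 4.61% ± 5.21 in other windows (mean ± SD). The difference was 1.10 percentage points ± 1.27 (SD), and it was above 0 in 163 libraries and below 0 in 23 (two-sided sign-flip permutation test over libraries, p = 1e-05, the smallest the 100000 resamples can give). With windows of under 5% undetermined bases the difference was 0.951 percentage points. The pooled fold, the call rate of water-called windows over that of other windows in all calls of the group, was 1.24 ± 0.0242 (jackknife SE over libraries).

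Among the 12 groups tested, the difference was widest relative to the call rate of other windows in libraries stained with crystal violet. Their call rate in water-called windows was 1.74% at the lowest, 2.56% at the median and 5.23% at the highest, and in other windows 0.221%, 0.526% and 0.954%. The lowest water-called rate therefore lay above the highest rate of other windows in any of the 16 libraries. The mean rates were 2.86% ± 1.04 and 0.528% ± 0.186 (SD), a pooled fold of 5.41 ± 0.503 (SE) and a difference of 2.33 percentage points (sign-flip permutation p = 5e-05, adjusted p = 0.0002 over 12 groups). Water-called windows took 6.68% of all calls of this group. In at least 1 of the 16 libraries 245 water-called windows (28.5%) were called, against 7.65% of all windows. Exactly 173 (20.1%) were called in 1 library and 51 (5.92%) in 2, against 6.50% and 0.725% of other windows. Of the water-called windows 3 (0.348%) were called in 12 libraries and 1 (0.116%) in all 16. No other window was called in more than 10.

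In the full collection, to which 5 of the 9 controls belong, the call rate of water-called windows was 0% at the lowest, 0.465% at the median and 15.3% at the highest of 34 libraries, against 0.00154%, 0.0607% and 13.96% in other windows. It was higher in 30 of the 34. The mean rates were 1.79% ± 3.66 and 1.15% ± 3.04 (SD), a difference of 0.634 percentage points (adjusted p = 0.00012, sign-flip permutation test) and a pooled fold of 1.55 ± 0.270. With windows of exactly 1 control the difference was 0.394 points and still passed (adjusted p = 0.0002). At least 1 library called 362 of the water-called windows (42%), against 32.9% of all windows. Libraries titled SYBR Gold stained had rates of 3.17% ± 2.44 and 2.59% ± 2.03 (SD, 14 of 15 libraries higher, adjusted p = 0.00081, sign-flip permutation test, fold 1.22 ± 0.0480). With windows of exactly 1 control the difference in this group was 0.329 points and did not pass (adjusted p = 0.0763), and with controls below 0.2% coverage it was 0.973 points.

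**Figure D1:**
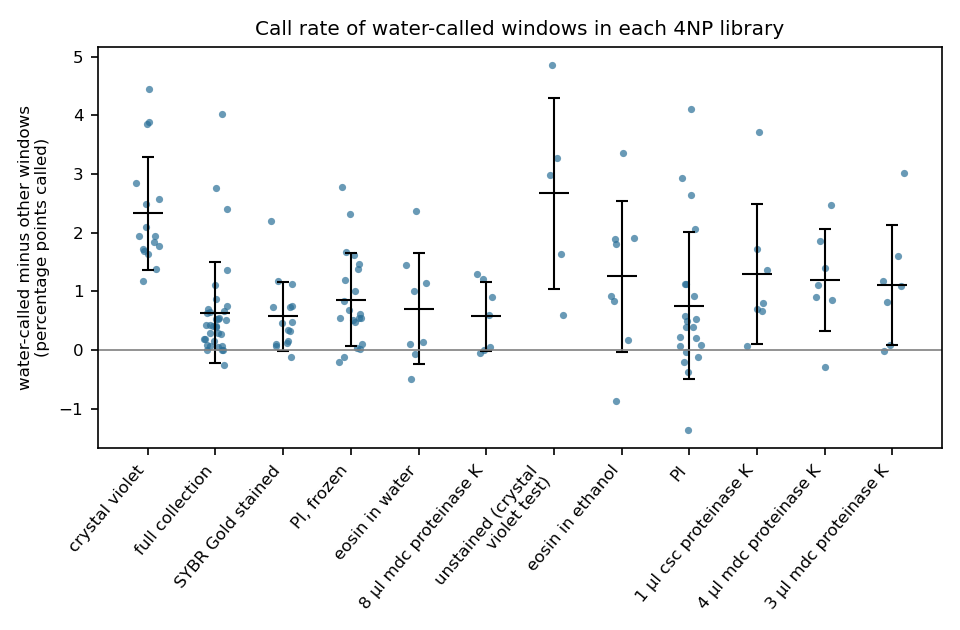
Call rate of water-called windows minus that of other windows in percentage points, for the 12 groups of at least 5 4NP libraries, ordered by mean coverage from left to right. Each point is a library, and the bar is the mean with its SD. All 16 crystal violet libraries, all 5 unstained libraries of that test and all 7 with 1 µl of csc proteinase K lie above 0, and each of the other 9 groups has at least 1 library below it.

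In the PI, proteinase K and eosin groups, which had higher coverage, the fold was smaller and the difference lay between 0.575 and 1.29 percentage points. In PI libraries the mean rates were 9.10% ± 6.91 and 8.35% ± 6.31 (16 of 21 libraries higher, adjusted p = 0.0174), a fold of 1.09 ± 0.0303. In frozen PI libraries they were 5.86% ± 5.49 and 5.00% ± 5.09 (19 of 21 higher, adjusted p = 0.0002), a fold of 1.17 ± 0.0399. With 1 µl of csc proteinase K the difference was 1.29 percentage points and all 7 libraries were higher (exact sign-flip permutation test, adjusted p = 0.0312). With 3 and 4 µl of mdc proteinase K it was 1.11 and 1.19 points, higher in 6 of 7 libraries each (exact adjusted p = 0.0417 in both), and with 8 µl it was 0.575 points, higher in 5 of 7 (exact adjusted p = 0.0682). With eosin in ethanol the difference was 1.26 points and 7 of 8 libraries were higher (exact adjusted p = 0.0417). With eosin in water it was 0.706 points and 6 of 8 were higher (exact adjusted p = 0.0781). The folds of these 6 groups lay between 1.10 and 1.15. The share of water-called windows called in at least 1 library was 86.4% with PI (81.3% of all windows) and 71.4% with PI and freezing (64.5%). It was 54.7% with csc proteinase K (49.1%), and 58.1%, 55.2% and 36.8% with 3, 4 and 8 µl of mdc proteinase K (54.8%, 52.5% and 33.5%). It was 37.9% with eosin in water (35.8%), 53.3% with eosin in ethanol (49%) and 35.5% in libraries titled SYBR Gold stained (32.1%). Each of these shares lay within 7 percentage points of that of all windows. The calls for 3 and 4 µl of mdc proteinase K and for eosin in ethanol were lost when most single libraries were left out (6 of 7, 6 of 7 and 7 of 8). The differences then stayed between 0.790 and 1.28, 0.9749 and 1.24, and 0.955 and 1.41 points, and the exact test, with the 1 library below 0 still included, gave adjusted p of 0.0625 to 0.0682. With 8 µl the difference was 0.365 points without the windows of full collection control 6 and 0.336 points with controls below 0.2% coverage, and the mean log2 fold per library was -0.15. The lowest log2 fold of this group, -1.60, came from library 2, which had 2 called windows and none that was water-called. With eosin in water the difference was 0.467 points without library 7, 0.431 points for windows with no other water-called window beside them, and 0.878 points without library 6, where it passed (exact adjusted p = 0.0375). The csc call was lost without full collection control 2 or 6 (exact adjusted p = 0.0536 to 0.0703) and with controls below 0.2% coverage (exact adjusted p = 0.0804). The 3 and 4 µl mdc groups, eosin in ethanol, the csc group and PI did not pass when windows with 5% or more undetermined bases were removed.

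The 5 unstained libraries of the crystal violet test had call rates of 11.3%, 14.3%, 16.4%, 3.25% and 7.08% in water-called windows and 6.41%, 13.7%, 13.1%, 1.61% and 4.09% in other windows. All 5 were higher in water-called windows, by a mean of 2.67 percentage points ± 1.63 (SD) and a fold of 1.34 ± 0.174. At least 1 of them called 40.2% of water-called windows and 33.4% of all windows. With 5 libraries the exact sign-flip test cannot give a p below 0.0625, which is the value obtained (adjusted p = 0.0682).

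**Figure D2:**
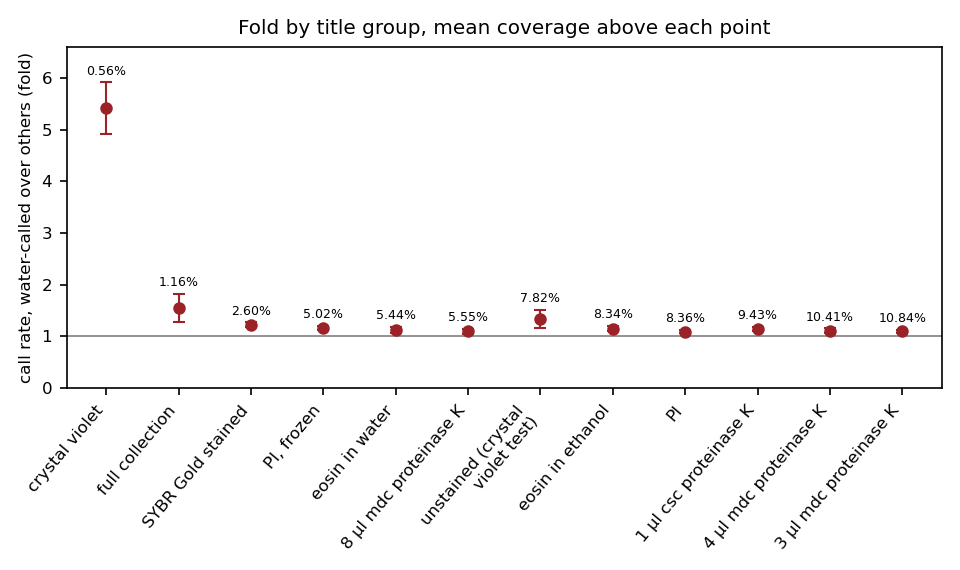
Pooled fold of the call rate in water-called windows over that in other windows for the same 12 groups, with the jackknife SE over libraries, ordered by mean coverage, which is printed above each point. Crystal violet lies at 5.41 at 0.559% coverage, the full collection at 1.55, and the other 10 groups between 1.09 and 1.34.

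The pooled fold weights a library by its calls, while the mean of the log2 folds of single libraries weights all libraries alike. That mean was 1.77 ± 1.70 in the full collection, 0.82 ± 1.97 in libraries titled SYBR Gold stained and 0.84 ± 1.45 over all 4NP libraries (SD), where the pooled folds were 1.55, 1.22 and 1.24. In the SYBR Gold group the mean was raised by library 1, which had 3 called windows, all water-called, and a log2 fold of 7.85. The next highest log2 fold of that group was 1.21.

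The fold was lower in groups of higher coverage. In the 13 groups with a mean coverage of 5% or more the fold ran from 1.09 to 1.49, with a median of 1.15. In the 3 groups from 2% to 5% it ran from 1.22 to 2.62 with a median of 1.27. In the 12 groups below 2% it ran from 0 to 6.30 with a median of 2.11. The 0 came from the 1 µl mdc proteinase K group, whose 2 libraries had 13 called windows together and none that was water-called. The 6.30 came from the 1 unstained library of the PI test, with 26 called windows of which 2 were water-called. In percentage points the medians of these sets of groups were 1.26, 1.01 and 0.381, from the highest coverage to the lowest. Whether coverage accounts for the spread of folds was not tested.

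The test of amplification cycles shows the same values side by side within an experiment, without replicates enough for a test. Libraries made with 25 cycles had rates of 13.1% and 11.1% in water-called windows and 8.63% and 7.71% in other windows, a fold of 1.49. The library with 23 cycles had 9.64% and 3.68%, a fold of 2.62. Those with 20 cycles had 5.23% and 1.86% in water-called windows and 0.296% and 1.72% in other windows, a pooled fold of 3.52 that rests on the first library. Coverage was 8.22%, 3.75% and 1.04% in the same order. In caps frozen after incubation, 3 libraries had water-called rates of 6.62%, 0.465% and 3.60% and other rates of 2.33%, 0.361% and 1.204%, a fold of 2.75 ± 0.187.

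Of 9 comparisons between groups, only crystal violet against unstained passed a test of the difference in fold. The log2 fold per library was 2.44 ± 0.485 in 16 stained and 0.60 ± 0.394 in 5 unstained libraries (SD), a difference of 1.84 with the stained library higher in 80 of 80 pairs (two-sided exact permutation p = 4.91e-05, the smallest the 20349 splits allow, adjusted p = 0.000442). On the scale of percentage points the direction turned: the difference was 2.33 in stained and 2.67 in unstained libraries (exact permutation adjusted p = 0.879 over the 9 comparisons). Mean coverage was 0.559% and 7.82%, and they shared no column of the plate, so staining, coverage and plate column cannot be told apart here. The other comparisons, PI with and without freezing, eosin in ethanol and water, SYBR Gold titles, proteinase K volumes and amplification protocols a and c, had adjusted p of 0.675 or more. Protocols a and c had 3 libraries each. Their 20 splits cannot give an exact permutation p below 0.05, so that comparison could not pass.

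A water-called window stood out from its own neighbourhood in 4 of the 12 groups. Against flanking windows the crystal violet libraries had a difference of 2.03 percentage points and a fold of 3.46 ± 0.269, higher in 16 of 16 libraries (sign-flip permutation adjusted p = 0.0006). The full collection had 0.461 points (29 of 34 higher, adjusted p = 0.00072), frozen PI libraries 0.491 points (16 of 21, adjusted p = 0.0236) and libraries titled SYBR Gold stained 0.355 points (12 of 15, adjusted p = 0.0406). The last call was lost when any of 10 of the 15 libraries was left out (adjusted p = 0.0504 to 0.0814). Against the windows directly beside, neither frozen PI libraries nor those titled SYBR Gold stained passed. Over all 4NP libraries the difference was 0.711 points and 146 were higher (sign-flip permutation p = 1e-05). The other 8 groups did not pass, with differences up to 1.78 points, and the 5 unstained libraries of the crystal violet test were all higher, by 1.78 points (exact adjusted p = 0.141). When only windows called in exactly 1 control were used, crystal violet alone of the 4 kept its call, and the full collection difference fell to 0.226 points (adjusted p = 0.185).

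The neighbourhoods themselves were called more often than other windows. Over all 4NP libraries the windows 3 to 10 places away had between 1.07 and 1.11 times the rate of other windows, those directly beside a water-called window 1.13 to 1.14 times, and the water-called windows 1.24 times. In crystal violet libraries the same ratios were 1.48 to 2.09, 2.04 to 2.50 and 5.41. In the proteinase K groups with 3 and 4 µl, 5 of the 20 neighbouring positions had a higher ratio than the water-called windows.

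**Figure D3:**
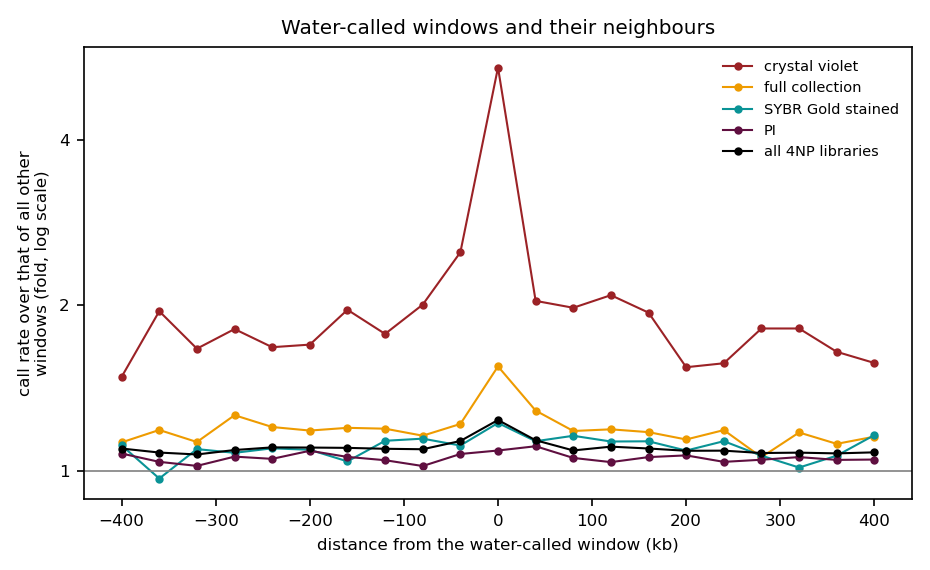
Call rate of water-called windows (distance 0) and of windows up to 400 kb on either side over that of all other windows, on a log scale, for 5 sets of 4NP libraries. Water-called windows at other positions were left out of the neighbours. The crystal violet line peaks at 5.41 and falls to 2.04 and 2.50 directly beside it, the full collection line peaks at 1.55, and the PI line has no peak at 0.

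Windows called in several controls had a higher mean call rate in 4NP libraries, and a few of them carried much of it. The 34 windows called in at least 2 controls had a rate of 11.1% ± 9.11 over all 4NP libraries and the 827 called in 1 control a rate of 5.49% ± 5.67 (SD), the first higher in 144 libraries (p = 1e-05, sign-flip permutation test). The median window was called in 12.5 libraries in the first set and in 10 in the second, and the 32 windows called in exactly 2 controls had a rate of 9.24%. In crystal violet libraries the rates were 17.1% and 2.27% (16 of 16 higher, adjusted p = 0.0003) and in the full collection 7.61% and 1.55% (29 of 34 higher, adjusted p = 0.00012). Groups titled SYBR Gold stained, PI and frozen PI also passed (adjusted p = 0.00092, 0.0145 and 0.0145), and the other 7 did not. Among these were the 5 unstained libraries of the crystal violet test, at 25.3% ± 10.9 and 9.84% ± 5.33 with 5 of 5 higher, for which the exact sign-flip test cannot give a p below 0.0625, the value obtained. Of the windows called in 3 or more controls, there were only 2, and they were called in 41.4% of libraries on average.

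The window called in the most controls, at chr2:125960001-126000000, holds the starts of Dtwd1, which encodes a transfer RNA modifying enzyme, and 4930525F21Rik. It was called in 6 of the 9 water controls, in 4 of the full collection and in those of the crystal violet test and the large kit. It was also called in both controls made with human DNA. Of the 4NP libraries 50 called it, 20 of the 34 in the full collection, 12 of the 16 with crystal violet and 4 of the 5 unstained ones of that test. In PI libraries it was called in 1 of 21 without and 3 of 21 with freezing, and in none of the 15 libraries titled SYBR Gold stained or the 8 with eosin in water. The windows beside it were called in 14 and 9 libraries, and the flanking ones in a median of 10.

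The window at chr17:39960001-40000000 was called in 104 4NP libraries, second among all 65983 windows. It holds the pseudogene AY036118, whose neighbour in the RefSeq annotation of the later GRCm38 assembly is Rn18s-rs5, a pseudogene related to ribosomal RNA. Water controls of the crystal violet test, the large kit and the SYBR Gold test called it, while none of the 5 low ones of the full collection did. All 16 crystal violet libraries and all 5 unstained ones called it, as did 11 of 15 titled SYBR Gold stained, 12 of 21 with PI and 12 of 21 with PI and freezing, and 9 of 34 in the full collection. The windows beside it were called in 4 and 5 libraries. Of its 31-base runs 32% occur more than once in the assembly, which is above the upper quartile of water-called windows.

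The window at chr10:128120001-128160000 was called in 66 4NP libraries, against 11 for each of its neighbours. It overlaps Cdk2, a kinase of the cell cycle, Pmel, a structural protein of melanosomes, Rab5b, a GTPase of early endosomes, and Dgka, a diacylglycerol kinase. Its controls were those of the crystal violet test and the small kit. It was called in 12 of 16 crystal violet libraries, 8 of 8 with eosin in water, 6 of 8 with eosin in ethanol and 10 of 15 titled SYBR Gold stained, but in only 1 of the 34 full collection libraries. Groups in which the Dtwd1 window was frequent and those in which this window was frequent were thus partly different, and this was not tested.

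The other named windows each had a call in 1 or 2 controls. A window without an annotated gene at chr17:4600001-4640000 was called in 45 libraries, 12 of them stained with crystal violet and 10 from the full collection, against 10 libraries for each window beside it. The window at chr9:123360001-123400000 with the end of Lars2, which encodes the mitochondrial leucyl-tRNA synthetase, and the start of Limd1 was called in 43. The window at chr16:35960001-36000000 over Kpna1, an importin that carries proteins into the nucleus, Parp9 and Gm15564 was called in 40. All 3 stood above a flanking median of 7.5 to 10. The windows were named for their many calls, so a count above that of the neighbours follows in part from this choice. Lower counts were found for Igf2bp3 and Tra2a (36), which encode RNA-binding proteins, for a window without a gene at chr1:12600001-12640000 (32), for Mll3, a histone methyltransferase (32), and for Cdc27, a subunit of the anaphase-promoting complex (29). The Igf2bp3 and Tra2a window was the only one of these 4 with a neighbour at 18 calls.

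**Figure D4:**
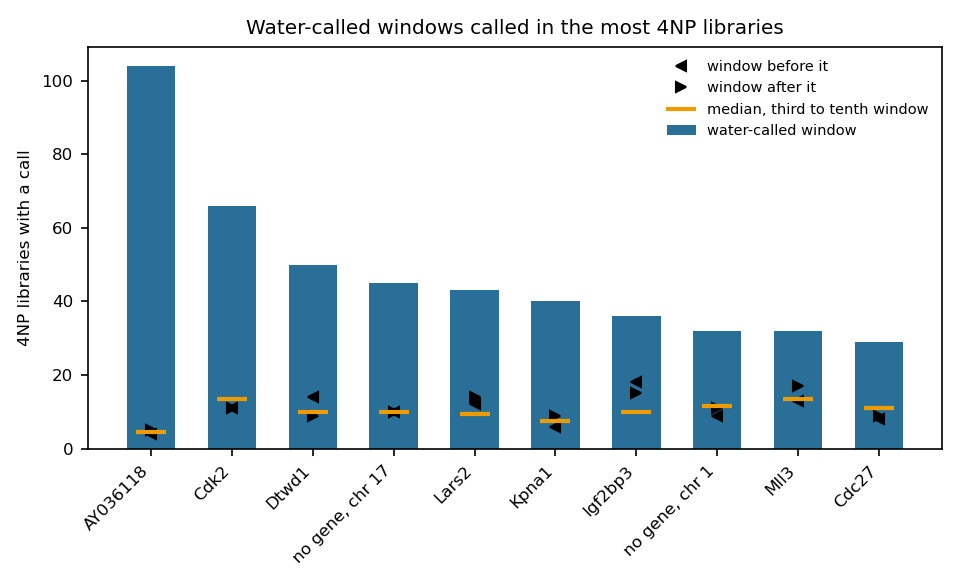
Number of 4NP libraries with a call in the 10 water-called windows called most often (bars), in the windows directly before and after each (triangles) and at the median of the windows 3 to 10 places away (orange lines). The bars run from 104 for the AY036118 window to 29 for the Cdc27 window, and no neighbouring window exceeds 18.

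The controls with 5 ng of human DNA, which were not used to choose the windows, held few calls but drew many of them from the set. In replicate 1, 5 of 26 called windows were water-called, a rate of 0.581% (Wilson 95% interval 0.248% to 1.35%) against 0.0322% in other windows (0.0211% to 0.0493%). In replicate 2 it was 9 of 35, or 1.05% (0.551% to 1.97%) against 0.0399% (0.0272% to 0.0585%). The folds were 18.01 and 26.2, and with 2 libraries no test was made. Together 11 water-called windows (1.28%) were called in at least 1 of them, against 0.0864% of all windows. They included the windows of Dtwd1, AY036118, Kpna1 and Cdc27 and a window over Csda, and 3 were called in both. Of the 355 windows that came only from controls of other experiments, 2 and 1 were called, or 0.563% (0.155% to 2.03%) and 0.282% (0.0497% to 1.58%). The folds for these windows were 17.5 and 7.06, so that in replicate 2 the fold was lower than over the whole set. They rest on these few calls. The AY036118 window was the only 1 of these windows called in replicate 2, and 1 of the 2 called in replicate 1. The water controls outside the limit, full collection replicate 4 and the SYBR Gold control titled unstained, called 22.4% (19.8% to 25.3%) and 21.8% (19.2% to 24.7%) of water-called windows and 21.3% and 20.99% of other windows, folds of 1.05 and 1.04. Together they called 338 water-called windows (39.3%), against 37.5% of all windows.

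Windows of each control were compared in libraries of its own experiment and of other experiments, using the windows that only controls of that experiment called. For the crystal violet test (181 windows) the log2 fold was 1.74 ± 1.09 in its own 21 libraries and -0.34 ± 2.47 in 165 others (SD), a difference of 2.08 (permutation adjusted p = 0.00172 over 4 experiments). Pooled over calls, the fold was 1.84 ± 0.521 in its own libraries and 1.16 ± 0.0303 in the others (SE), so that the mean log2 value of the others has the opposite sign to their pooled fold. Within the test, these windows had a pooled fold of 4.97 ± 0.747 in stained and 1.16 ± 0.233 in unstained libraries. In percentage points it was 1.10 (adjusted p = 0.0249). For the full collection, the kit test and the SYBR Gold test the log2 differences were -0.27, -1.03 and -0.46 (adjusted p = 0.656 in each). Their pooled folds went the other way. They were 1.35 ± 0.178, 1.57 ± 0.430 and 1.24 ± 0.177 in the own libraries (SE). In the others they were 1.19 ± 0.0231, 1.17 ± 0.0341 and 1.16 ± 0.0453, and this difference was not tested. In percentage points the full collection passed in the opposite direction to the crystal violet test, at -0.622 (adjusted p = 0.0249), the kit test turned to 0.662 and the SYBR Gold test was at -0.241 (adjusted p = 0.735 in both). Stained libraries of the crystal violet test were high for windows of every control, however. Beside the windows of their own test's control, those of the full collection alone had a fold of 4.53 ± 0.361 there, those of the kit test alone 3.72 ± 0.732 and those of the SYBR Gold test alone 2.49 ± 0.437. For the crystal violet test mean coverage was 2.29% in the own libraries and 4.93% in the others. For the full collection it was 1.16% and 5.40%. The part of coverage in the differences was not tested.

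**Figure D5:**
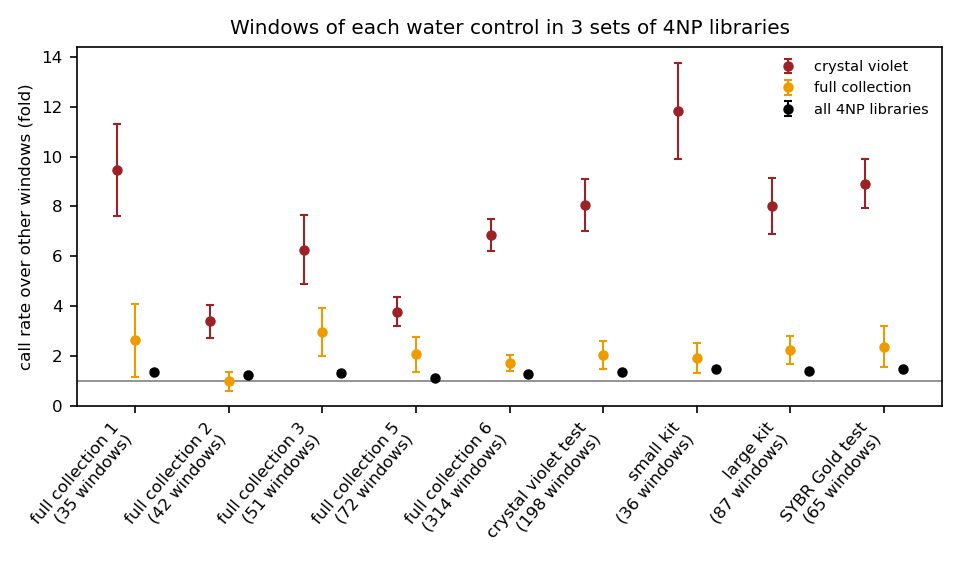
Fold of the call rate over that of other windows for the windows of each of the 9 water controls, in crystal violet, full collection and all 4NP libraries, with the jackknife SE over libraries. Windows shared by controls count in each. In crystal violet libraries the folds run from 3.38 (full collection 2) to 11.8 (small kit), in the full collection from 0.972 to 2.95, and in all 4NP libraries from 1.12 to 1.47.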

How the data were processed

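The deposited table held calls of 0 or 1 for 68162 windows, 65983 of them on chromosomes 1 to 19 and X, in 199 libraries. The authors aligned reads to mm9 with Bowtie2 (version 2.1), removed duplicates with Samtools and called windows with GAMtools at 4 reads. Calls do not hold depth, so a window near that threshold can be lost in a shallow library.

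Groups followed titles. The water-called windows, lists and tests were chosen with earlier results of these data known. Call rates of water-called and other windows were compared within each library (sign-flip permutation, exact under 10 libraries, otherwise 100000 resamples), for groups of at least 5, and adjusted by Benjamini-Hochberg within each family of 12, 9 or 4 tests. Nothing in the labels says that caps came from separate cultures, so p-values measure the spread between caps. Log2 folds used a prior of 1 call. The tests were also run on simulated calls drawn independently for each window. The simulation held no likeness between neighbouring windows, so it does not cover that feature of the data. Genes came from GENCODE M1 and sequence from NCBIM37 (both mm9). Named windows were those in at least 3 of the controls, the 10 in the most 4NP libraries and the 5 in the most crystal violet libraries. Python 3.11.15 with numpy 2.4.6, scipy 1.17.1 and pandas 2.3.3 was used.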

Additional observations from a re-analysis of the deposited data

Results flagged for a closer look

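Replicate 5 of the libraries with eosin in ethanol stood apart from the other 7 of its group: its log2 fold of water-called over other windows was -0.14, and the next lowest was 0.16. It was the only library set apart by Dixon's criterion among 7 groups of 4 to 10 libraries and 2 measures, and chance sets apart about 1 in 20 such groups. It was also the only library of its group with a negative difference, at -0.864 percentage points.

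The fold differed between the crystal violet and the unstained libraries of the same test, by 1.84 on the log2 scale (exact permutation test), and turned to -0.341 percentage points on the other scale. The windows of the crystal violet test control had a higher fold in the libraries of their own test than in other libraries, by 2.08 on the log2 scale (permutation test). Their pooled fold was 4.97 ± 0.747 in the stained libraries of that test, 1.16 ± 0.233 in its unstained libraries and 1.16 ± 0.0303 in those of other experiments (SE).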

How the results depend on the processing

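For crystal violet, the full collection and frozen PI, the difference between water-called and other windows kept its direction and its side of the threshold under every alternative run. Values are percentage points unless said otherwise. On the log2 scale within a library, 3 µl of mdc proteinase K (0.112) no longer passed and 8 µl turned to -0.150. The 8 µl mean includes library 2, with 2 called windows and a log2 fold of -1.60. On autosomes alone 3 µl (1.27) no longer passed. With windows of under 5% undetermined bases, PI (0.490), csc (0.987), 3 µl (0.775), 4 µl (0.875) and eosin in ethanol (1.01) were lost. With windows of exactly 1 control, PI (0.626), 3 µl (0.993), 4 µl (1.09), eosin in ethanol (1.11) and SYBR Gold (0.329) were lost. With controls below 0.2% coverage, csc (1.41), 3 µl (0.565), 4 µl (1.45) and eosin in ethanol (0.972) were lost. Against the windows directly beside, PI turned to -0.00819, and frozen PI (0.152) and SYBR Gold (0.265) did not pass. Against flanking windows, those of exactly 1 control gave 0.371 in frozen PI, 0.226 in the full collection and 0.0971 in SYBR Gold, none of which passed. The cause of these changes was not tested.

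Leaving out 1 library or control gave 0.888 to 1.50 for csc, 0.790 to 1.43 for 3 µl, 0.9749 to 1.44 for 4 µl, 0.365 (without full collection control 6) to 0.822 for 8 µl, 0.955 to 1.56 for eosin in ethanol and 0.467 (without library 7) to 0.878 for eosin in water. Leaving out single controls ended the call for csc (2 of 9), 3 µl (4 of 9), 4 µl (3 of 9) and eosin in ethanol (3 of 9). Eosin in water passed without 1 of its 8 libraries. Against flanking windows the ranges were 0.717 to 1.18 for eosin in ethanol and 0.385 to 0.712 for eosin in water, which each passed without 1 library. For 3 µl it was 0.0498 to 0.385 around a value of 0.162 that did not pass. For SYBR Gold it was 0.250 to 0.400, and the call was lost without any of 10 of its 15 libraries.

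Between groups the crystal violet difference in log2 fold was 1.70 to 1.94 with 1 library left out, and -0.341 in percentage points, a scale chosen after seeing the data. SYBR Gold stained minus unstained turned to -0.290 with a prior of 10 calls, to -0.252 with windows of exactly 1 control and to -0.230 in points, and ran from -0.606 to 0.974 with 1 library left out. PI minus frozen PI turned to 0.0168 on autosomes (-0.152 to 0.0872 with 1 left out), csc minus 4 µl to 0.105 in points (-0.0742 to 0.0125 with 1 left out), and protocol a minus c to -0.276 in points. For own against other experiments, the full collection turned to 0.224 with a prior of 10 calls and 0.945 with windows of several experiments kept, and in points it passed at -0.622. The kit test turned to 0.683 with such windows kept and 0.662 in points, and the SYBR Gold test to 1.39 with such windows kept.

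No paired analysis was possible because the replicate numbers only name libraries in order and tie none across groups. The share of soft-masked bases was not run, since the reference holds 0 lower-case bases. Depth is not recorded in calls, so missing DNA and missing reads cannot be told apart where a window has no call.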
